A study of Mus musculus with 17 samples.

Results

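The genes described here are Hes1 and 8 other genes of the Notch pathway, namely the ligand Jag1, the receptors Notch1 and Notch2, the protease Adam10, the DNA-binding factor Rbpj with its coactivator Maml1, and the targets Hey1 and Nrarp. The 9 genes were chosen by name, and Hes1 was chosen from its values in wild-type libraries with and without TGF-β1. They are 9 of 37620 genes in the table and 9 of 62 genes in a wider list of Notch pathway genes used as their setting. Hey1 and Nrarp never reached the level needed for a test, so 7 of the 9 members and 48 of the 62 pathway genes are among the 12158 genes tested.

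Notch is a receptor that a ligand on a neighbouring cell activates by touch. Ligand binding exposes the receptor to ADAM10, the γ-secretase complex then frees its intracellular part, and that part joins RBPJ and a Mastermind protein in the nucleus to switch on targets such as Hes1, Hes5, Hey1, Hey2, Heyl and Nrarp. HES1 is itself a repressor, and in macrophages it is known to damp some inflammatory genes. TGF-β signals through SMAD3, and Hes1 and Hey1 are known to respond to TGF-β in several other cell types.

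RNA was sequenced in 17 libraries of C57BL/6J mouse bone marrow-derived macrophages, which were grown for 7 days with M-CSF, a macrophage growth factor, at 50 ng/ml. The groups were 5 Smad3 wild-type control libraries, 4 Smad3 wild-type libraries given TGF-β1 (5 ng/ml) over 5 additional days, 5 Smad3-knockout control libraries and 3 Smad3-knockout libraries with the same TGF-β1. The study asks which genes take part in the TGF-β/Smad3-driven change of macrophages into myofibroblasts. Values are TPM, an abundance corrected for gene length and library total, so the depth of a library is unknown. Controls and treated libraries carry identical treatment text, and no label says whether control cells had the extra days, which library came from which actin sort, whether a library is 1 cell or many, or which animal it came from. The sorts were for actin-positive and for actin-negative cells. By its title and design the series profiled individual cells, whereas its RNA extraction used a column kit on suspended cells. The p-values below can speak only for the scatter among these libraries. If each library is 1 cell, those p-values treat cells as replicates of a condition. If a library holds many cells, fewer cells of a type and less RNA per cell cannot be told apart. Ages and the allele of the Smad3 knockout are not given in the sources used here.

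A library held 7269 to 10307 genes at 1 TPM or more, and all 20 housekeeping genes checked were above 0 in all 17. The lowest housekeeping value was 0.54 TPM. Zeros also occurred among moderately expressed genes, those averaging 10 to 50 TPM across the other libraries of a group. Their share at 0 ran from 4.08% (knockout control replicate 4) to 14.8% (wild-type TGF-β1 replicate 3). Correlations between libraries were 0.61 to 0.81. A 0 for Smad3, Hes1, Jag1, Notch1 or Maml1 in a library therefore need not mean absence. Of 8 macrophage markers, 6 were at 1 TPM or more in all 17 libraries. Smad3 went against the genotype labels under TGF-β1 but not in controls. Its TPM in wild-type controls was 0, 0.01, 0, 15.38 and 11.54, it was 0 in all 4 wild-type TGF-β1 libraries, it was 0, 0.27, 1.93, 0 and 0 in libraries labelled knockout control, and it was 6.18, 0.01 and 22.26 in those labelled knockout with TGF-β1. In controls the knockout minus wild-type difference was -1.16 on the log2(TPM + 1) scale, in the direction of the labels (two-sided exact permutation p = 0.365). Under TGF-β1 it was higher in the knockout-labelled libraries by 2.47 on the log2(TPM + 1) scale (two-sided exact permutation p = 0.0286, the smallest these group sizes allow). TPM is given per gene and the knockout allele is not given, so these values cannot show whether the altered part of Smad3 was transcribed. Genotype is therefore given as labelled, and no genotype direction has support beyond those labels.

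The bases just upstream of a target's start are shown because they are one place where RBPJ can act, and because the targets other than Hes1 were listed at 0. They are given for Hes5 and Hey2, classical Notch targets, for the member Nrarp, and for Adam10, the member besides Hes1 whose wild-type groups did not overlap. Each sequence runs 5′ to 3′ in the direction of the gene, comes from RefSeq on GRCm38.p6, and stops before the first base of any exon in the GENCODE annotation of that build. Capitals mark the RBPJ letters GTGGGAA and the SMAD letters CAGAC on either strand.
Hes5, chr4:154960673-154960769, forward strand: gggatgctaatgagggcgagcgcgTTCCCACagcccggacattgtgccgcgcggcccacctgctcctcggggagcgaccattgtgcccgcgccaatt
Hey2, chr10:30842802-30843033, reverse strand: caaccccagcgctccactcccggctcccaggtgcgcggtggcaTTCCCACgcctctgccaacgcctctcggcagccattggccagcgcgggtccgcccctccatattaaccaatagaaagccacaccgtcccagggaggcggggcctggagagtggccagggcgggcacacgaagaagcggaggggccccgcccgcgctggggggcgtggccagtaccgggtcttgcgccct
Nrarp, chr2:25180508-25180757, forward strand: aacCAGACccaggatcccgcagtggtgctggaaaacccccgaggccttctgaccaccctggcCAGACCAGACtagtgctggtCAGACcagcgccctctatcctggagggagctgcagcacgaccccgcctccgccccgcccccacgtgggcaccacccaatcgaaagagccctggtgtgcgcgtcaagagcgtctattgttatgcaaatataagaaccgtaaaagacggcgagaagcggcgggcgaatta
Adam10, chr9:70678732-70678981, forward strand: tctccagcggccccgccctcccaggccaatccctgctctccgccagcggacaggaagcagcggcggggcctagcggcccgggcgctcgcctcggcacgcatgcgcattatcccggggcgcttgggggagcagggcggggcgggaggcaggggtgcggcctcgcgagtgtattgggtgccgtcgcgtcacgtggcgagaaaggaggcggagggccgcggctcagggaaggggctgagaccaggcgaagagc

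The Hes5 and Hey2 stretches each held 1 match to GTGGGAA, on the reverse strand. The Nrarp stretch held 4 matches to CAGAC on its forward strand and none to GTGGGAA, and the Adam10 stretch held neither motif. In windows of 250 bases before the start, GTGGGAA on either strand was present in 5.42% and CAGAC in 42.2% of 32851 windows of all genes. Of 50 pathway genes in the table, 5 held GTGGGAA and 21 held CAGAC in at least 1 window. No window was available for Hes1 or Hey1, so neither was searched for a motif. Among the 7 other members, GTGGGAA was in none, and CAGAC was in Nrarp and Jag1. A match is a description of letters and shows no binding, and bases outside these windows were not searched.

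Hes1 (ENSMUSG00000022528) was near 0 in every control library and present in every wild-type library with TGF-β1. Its TPM was 0, 0.04, 0.04, 0 and 0.03 in wild-type controls, and 208.11, 20.91, 48.06 and 19.17 in wild-type libraries with TGF-β1. The wild-type groups did not overlap, and 1 treated library was more than 4 times as high as any other of its group. The difference was 5.50 ± 0.91 (SE) on the log2(TPM + 1) scale, and it is given as a description because these values chose the gene. With a pseudocount of 10 in place of 1 it was 2.54, and with 0.1 it was 8.54, since the control level is near 0.

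In libraries labelled knockout, Hes1 was 0, 0, 0, 0 and 0.13 TPM in controls and 0.03, 0.03 and 21.89 TPM with TGF-β1. It was thus present in 1 of 3 treated libraries, at a level inside the wild-type TGF-β1 range, and the groups overlapped. The knockout difference was 1.50 ± 0.99 (SE) and did not pass the test (limma adjusted p = 0.88, two-sided exact permutation p = 0.125, where the smallest possible is 0.0179). Hes1 met the filter of 3 libraries only through the wild-type TGF-β1 libraries that chose it. The limma SE also pools the scatter of all 4 groups, so the limma result is not independent of those libraries. The permutation used knockout libraries alone. Without the third treated library the knockout difference was 0.0074. That library, labelled knockout TGF-β1 replicate 3, also had the highest Smad3 of all 17, at 22.26 TPM, and a summed TPM of 53.5 over 6 T lymphocyte markers, against 12.6 and 0.24 in the other treated knockout libraries. Its summed TPM over 5 dendritic cell markers was 5.22, and that sum was 4.69 in the wild-type TGF-β1 library with 208.11 TPM of Hes1 and at most 0.44 in the other 15 libraries, with Clec9a and Cd209a at 0 in all 17. The T-cell receptor genes Cd3e and Cd3g were at 0 in all 17 libraries. Below 1 TPM in all 17 were 4 of the 5 dendritic cell markers and 3 of the 6 T lymphocyte markers. The sums thus rest on few genes and do not identify a cell type. The part of these values in the Hes1 result was not tested.

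**Figure D1:**
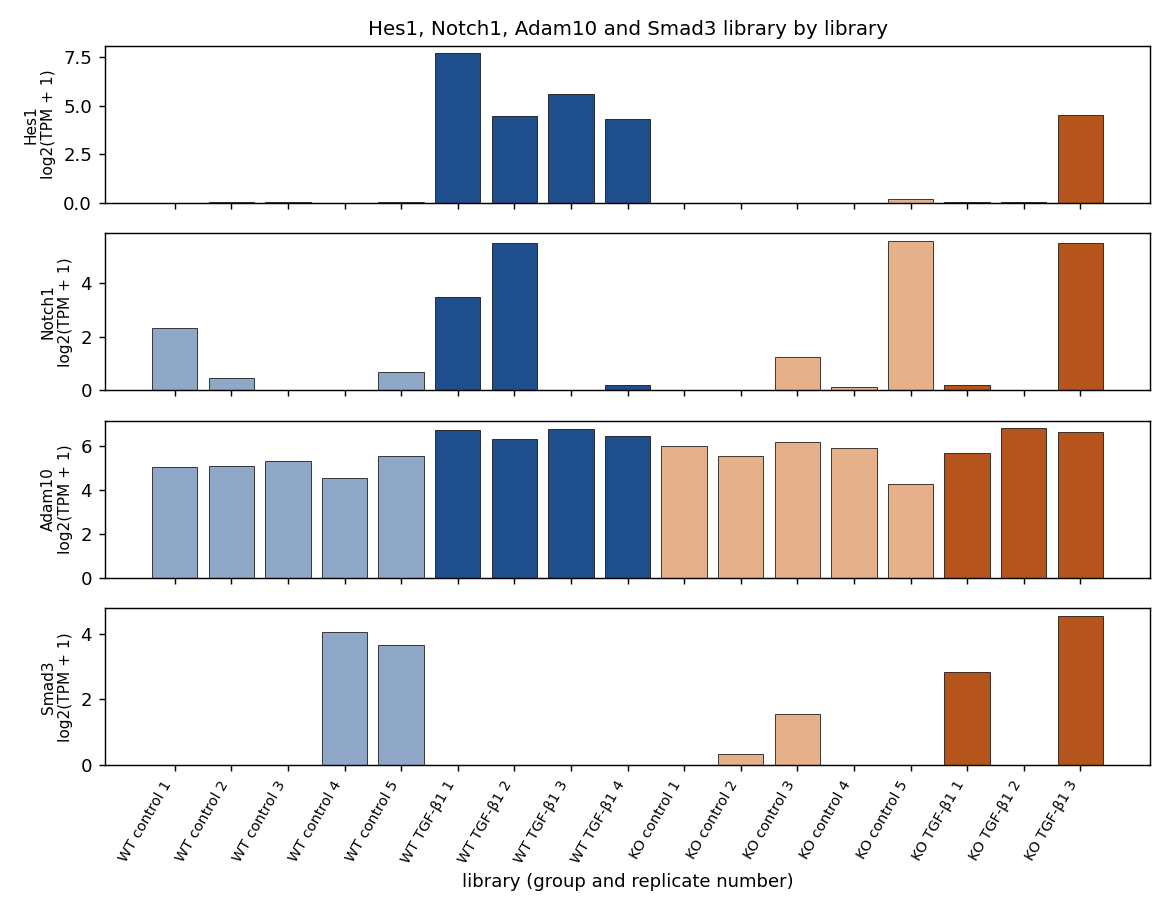
Each bar is log2(TPM + 1) in 1 library for Hes1, Notch1, Adam10 and Smad3, with libraries in the order of their labels and coloured by group (WT, Smad3 wild type; KO, labelled Smad3 knockout). Hes1 stands above 1 TPM in 5 libraries, all treated with TGF-β1, of which 4 list Smad3 at 0 and 1 has the highest Smad3 value, 22.26 TPM.

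Ordered by median, Hes1 was 34.5 TPM in wild type with TGF-β1, 0.03 in knockout with TGF-β1, 0.03 in wild-type controls and 0 in knockout controls. The last 3 groups overlapped one another. Between genotypes under TGF-β1 the difference was -3.99 ± 1.04 (SE), knockout minus wild type, and without the knockout library that held Hes1 it was -5.49. The difference between the TGF-β1 effects was -3.998 ± 1.35 (SE). These values use the wild-type libraries that chose the gene and are given without a test.

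**Figure D2:**
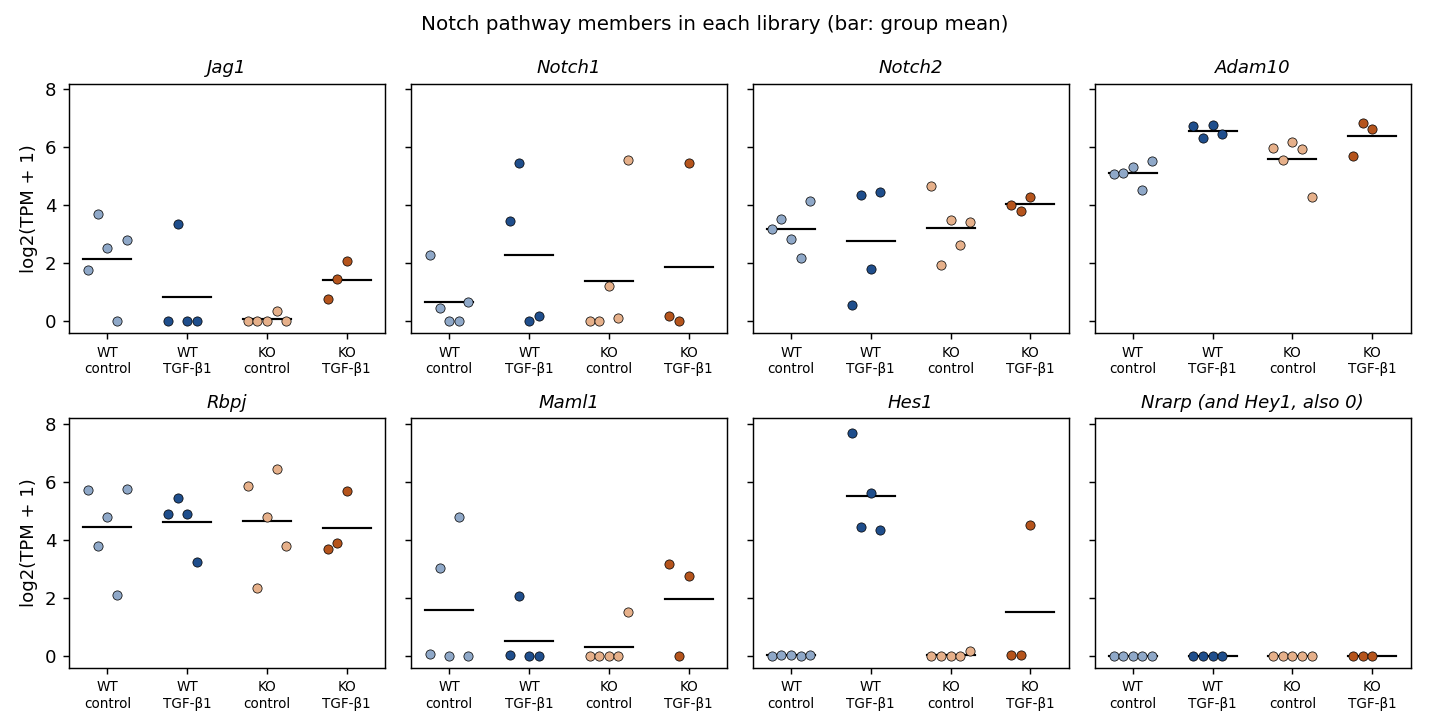
Each point is log2(TPM + 1) of 1 library and the bar is the group mean, for 8 panels of members (Hey1, also 0 in all libraries, shares the panel of Nrarp). Hes1 and Adam10 separate the wild-type groups, whereas Notch1, Notch2, Rbpj and Maml1 overlap between all groups.

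Ligand transcripts were low. Jag1 (ENSMUSG00000027276), a ligand that activates Notch on neighbouring cells, was 2.42, 11.89, 4.8, 0 and 5.96 TPM in wild-type controls and 0, 9.24, 0 and 0 with TGF-β1. In libraries labelled knockout it was 0, 0, 0, 0.27 and 0 TPM in controls and 0.71, 1.77 and 3.26 with TGF-β1. Jag1 was thus found in 4 of 5 wild-type controls and was at most 0.27 TPM in knockout controls. All 3 treated knockout libraries lay above every knockout control.

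The knockout TGF-β1 difference of Jag1 was 1.38 ± 0.86 (SE) and did not pass the test (adjusted p = 0.88). Between genotypes in controls it was -2.09 ± 0.75 (unadjusted p = 0.011, adjusted p = 0.68). The TGF-β1 effects differed by 2.70 ± 1.17 (knockout minus wild type, unadjusted p = 0.032, adjusted p = 0.997). None of these passed after adjustment. Of the other ligands, Dll1 and Dll4 were at 0 in all 17 libraries and Dll3 stayed under 1 TPM. Jag2, a second Jagged ligand, was at most 1.6 TPM in every group but the treated knockout libraries, where it was 4.32, 4.77 and 0.01 TPM (difference 1.65 ± 0.55, unadjusted p = 0.0074, adjusted p = 0.66).

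Of the 4 receptors, Notch1 and Notch2 were found, Notch4 was at 0 throughout, and Notch3 did not exceed 0.01 TPM. Notch1 (ENSMUSG00000026923) was 3.92, 0.37, 0, 0 and 0.59 TPM in wild-type controls and 10.01, 43.49, 0 and 0.15 with TGF-β1. In libraries labelled knockout it was 0.02, 0, 1.34, 0.09 and 46.16 TPM in controls and 0.14, 0.01 and 43.21 with TGF-β1. Notch1 was above 10 TPM in 4 libraries from 3 groups, and every group had libraries below 1 TPM. Of the 5 libraries with Hes1 above 1 TPM, 3 had Notch1 above 1 TPM and the other two had 0 and 0.15. The knockout control with 46.16 TPM of Notch1 had 0.13 TPM of Hes1.

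Notch1 differed by 0.50 ± 1.48 (SE) with TGF-β1 in knockout (adjusted p = 0.99) and by 0.70 ± 1.28 between genotypes in controls (adjusted p = 0.98), and these became -1.29 without knockout TGF-β1 replicate 3 and -0.34 without knockout control replicate 5. Notch2 (ENSMUSG00000027878), the receptor that myeloid cells are known to use, was steadier. It was 8.06, 10.54, 6.16, 3.54 and 16.7 TPM in wild-type controls and 0.47, 19.41, 2.5 and 20.82 with TGF-β1. It was 24.42, 2.81, 10.37, 5.19 and 9.8 TPM in knockout controls and 15.06, 13.09 and 18.54 with TGF-β1. Notch2 was above 1 TPM in 16 of 17 libraries, and its groups overlapped in every comparison. The knockout TGF-β1 difference was 0.80 ± 1.03 (adjusted p = 0.98), and the wild-type difference, given as a description, was -0.38 ± 0.95.

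Enzymes that add sugars to Notch tune which ligand it answers. All 5 listed were tested, and none passed in any comparison. Lfng, a Fringe glycosyltransferase, was 3.01, 2.81, 3.4, 1.88 and 0.06 TPM in wild-type controls and 32.33, 14.43, 4.84 and 10.29 with TGF-β1. Those groups did not overlap, with a difference of 2.23 ± 1.06 (SE, adjusted p = 0.50). In libraries labelled knockout the Lfng groups overlapped (0.28 to 21.68 TPM in controls, 1.38 to 31.88 with TGF-β1). Rfng, a related Fringe enzyme, was 0 to 25.84 TPM in wild-type controls and 1.54 to 79.52 in knockout controls, one of the largest pathway differences there at 2.11 ± 1.25 (adjusted p = 0.91). Leaving out the 6 libraries in which over 10% of moderately expressed genes (mean 10 to 50 TPM in the rest of the group) were at 0, Rfng was -0.33. Poglut1, an O-glucosyltransferase, was 0.24 to 83.55 TPM in wild-type controls and overlapped everywhere.

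The proteases that cut Notch were the role most steadily found. Adam10 (ENSMUSG00000054693), which makes the ligand-dependent cut, was 32.77, 33.33, 39.55, 22.31 and 45.72 TPM in wild-type controls and 104.81, 79.36, 108.76 and 87.43 with TGF-β1. The lowest treated library lay above the highest control, and the difference, given as a description, was 1.45 ± 0.48 (SE). It was 62.85, 46.09, 72.22, 60.34 and 18.64 TPM in knockout controls and 50.76, 112.41 and 99.01 with TGF-β1. Here the groups overlapped through 1 treated library, and the knockout difference of 0.79 ± 0.52 did not pass (adjusted p = 0.88). The effects of TGF-β1 on Adam10 in the genotypes differed by -0.66 ± 0.71 (adjusted p = 0.997), so no difference between genotypes was shown.

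Of 10 genes for cleavage, 6 were at 1 TPM or more in all 17 libraries. Psenen, Ncstn and Adam17, which are a γ-secretase subunit, another subunit and a second ADAM protease, had the highest mean log2(TPM + 1) of the list besides Adam10. Their ranges in wild-type controls were 119.57 to 362.38 TPM for Psenen, 24.86 to 139.11 for Ncstn and 38.17 to 235.79 for Adam17, and each overlapped between groups in every comparison.

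Aph1b, a γ-secretase subunit, was among the largest pathway differences between genotypes. It was 0.63, 0, 17.02, 0 and 0 TPM in wild-type controls and 0, 0.09, 2.07 and 0.08 with TGF-β1. It was 18.15, 19.62, 20.21, 4.56 and 3.41 TPM in knockout controls and 7.4, 36.0 and 33.49 with TGF-β1. All but 1 wild-type library lay below every knockout library. The difference was 2.55 ± 0.96 (SE) in controls (adjusted p = 0.73) and 3.999 ± 1.16 with TGF-β1 (unadjusted p = 0.0025, adjusted p = 0.42). Its near-identical neighbour in sequence, Aph1c, shares reads with it, so the split between them is uncertain.

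Ubiquitin ligases and adaptors that sort ligand or receptor made up a list of 12 genes, of which 8 were tested and none passed. Numb, an inhibitor of Notch, was 0.17 to 64.02 TPM in wild-type controls and 4.73 to 49.75 with TGF-β1. Dtx3 and Dtx4, of the Deltex family, were 14.57 to 61.44 and 6.91 to 35.56 TPM in wild-type controls. Dtx2, of the same family, had a difference between TGF-β1 effects of 3.54 ± 1.87 (adjusted p = 0.997), the second largest in the pathway after Hes1. It was 0 to 11.71 TPM in treated wild-type and 6.99 to 29.35 in treated knockout libraries.

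Of 9 nuclear activators listed, Rbpj and Snw1 were at 1 TPM or more in all 17 libraries. Rbpj (ENSMUSG00000039191), which binds DNA for every Notch receptor, was 51.63, 12.9, 27.16, 3.33 and 53.03 TPM in wild-type controls and 29.13, 43.08, 28.59 and 8.48 with TGF-β1. It was 57.56, 4.12, 26.67, 87.48 and 12.88 TPM in knockout controls and 11.86, 13.97 and 50.75 with TGF-β1. The Rbpj groups overlapped in every comparison. Its differences were 0.19 ± 0.92 (SE) with TGF-β1 in wild type, a description, and -0.23 ± 1.00 in knockout (adjusted p = 0.99).

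Maml1 (ENSMUSG00000050567), a Mastermind coactivator, was patchy. It was 0.06, 7.23, 0, 27.02 and 0 TPM in wild-type controls and 0.02, 3.18, 0 and 0 with TGF-β1. It was 0.01, 0, 0, 0 and 1.86 TPM in knockout controls and 8.08, 0 and 5.73 with TGF-β1. Maml1 was above 1 TPM in 6 of 17 libraries, spread over all 4 groups. The knockout TGF-β1 difference was 1.67 ± 1.04 (adjusted p = 0.88), and the TGF-β1 effects differed by 2.74 ± 1.41 (adjusted p = 0.997).

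Among the other nuclear activators, Crebbp, a histone acetyltransferase, was 17.21, 18.55, 5.96, 17.12 and 22.36 TPM in wild-type controls and 0, 4.35, 6.88 and 1.32 with TGF-β1. Only the highest treated library reached the control range, and the difference was -2.35 ± 0.93 (SE, unadjusted p = 0.020, adjusted p = 0.41). In libraries labelled knockout Crebbp was 14.14, 5.89, 19.22, 9.38 and 8.54 TPM in controls and 15.54, 12.93 and 0.77 with TGF-β1, the last in the library that held Hes1. Kat2a, another acetyltransferase, was 4.99, 0.86, 7.39, 6.77 and 10.88 TPM in knockout controls and 17.64, 34.71 and 25.4 with TGF-β1. Those groups did not overlap, with a difference of 2.09 ± 1.31 (adjusted p = 0.88). Snw1, a nuclear cofactor, was 9.93 to 76.77 TPM in wild-type controls and overlapped everywhere.

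All 11 corepressors were tested and none passed. Hdac1, a histone deacetylase, was 1.58 to 79.82 TPM in wild-type controls and 54.1 to 152.05 with TGF-β1. Ncor1 and Ctbp1, scaffolds that recruit deacetylases, were 7.18 to 123.01 and 0.07 to 39.04 TPM in wild-type controls. Tle4, a Groucho-type corepressor that HES proteins recruit, was 6.11, 9.67, 8.21, 17.32 and 12.14 TPM in knockout controls and 6.12, 0 and 0.05 with TGF-β1. Its difference of -2.50 ± 1.24 was the largest of the pathway in that comparison (unadjusted p = 0.057, adjusted p = 0.84).

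Of the 6 classical targets, Hes1 was the only 1 found. Hes5, Hey1 (ENSMUSG00000040289), Hey2, Heyl and Nrarp (ENSMUSG00000078202) were listed at 0 in all 17 libraries, including the 5 libraries with 19.17 to 208.11 TPM of Hes1. Hey1 is a repressor related to HES1, and Nrarp is a feedback inhibitor of the Notch complex. TPM carries no depth, so no upper limit can be set on these zeros.

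Across the pathway, 1 of 48 tested genes, Hes1, passed in wild type with TGF-β1, beside 22 of all 12158 tested genes (0.181%). Nothing is read from that count, since those values chose Hes1. In the knockout TGF-β1 comparison 0 of 48 passed with limma, beside 0.00823% of all genes. At an unadjusted p under 0.05 there was 1 of 48, beside 721 of all 12158 genes. Between genotypes, 0 of 48 passed with limma in controls, beside 0.148% of all genes, and 0 of 48 with TGF-β1, beside 0.156%. At an unadjusted p under 0.05 there were 2 of 48 in controls, beside 708 of all 12158 genes, and 3 of 48 with TGF-β1, beside 638. Hes1 is among those 3, through wild-type values that chose it. For the difference between TGF-β1 effects 0 of 48 passed with limma (2 at an unadjusted p under 0.05, Hes1 and Jag1). That contrast also holds the wild-type values that chose Hes1, so nothing is read from Hes1 in it. No gene of the 12158 passed there (0.0%), and 569 were at an unadjusted p under 0.05.

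By separation of libraries, 3 of 48 pathway genes (Hes1, Adam10 and Lfng) were higher in every treated than in every control wild-type library, beside 1.8% of all tested genes. These values chose Hes1, so nothing is read from that count, and of the 41 tested pathway genes that are not members 1 was so separated. In libraries labelled knockout, 2 of 48 (Jag1 and Kat2a) were so, beside 3.05%. Under TGF-β1, 3 of 48 (Aph1a, Aph1b and Spen) were higher in every knockout than in every wild-type library, beside 3.15%. The knockout and wild-type contrasts share libraries with the genotype contrasts, so their values are given side by side and not compared.

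The median log2 difference of the 48 pathway genes was 0.20 in wild type with TGF-β1, where it was 0.088 over all tested genes, and 0.35 in knockout, against 0.074. Between genotypes it was 0.21 in controls, against 0.11, and 0.43 with TGF-β1, against 0.058. Of the 48, 28 were positive in wild type and 30 in knockout with TGF-β1.

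**Figure D3:**
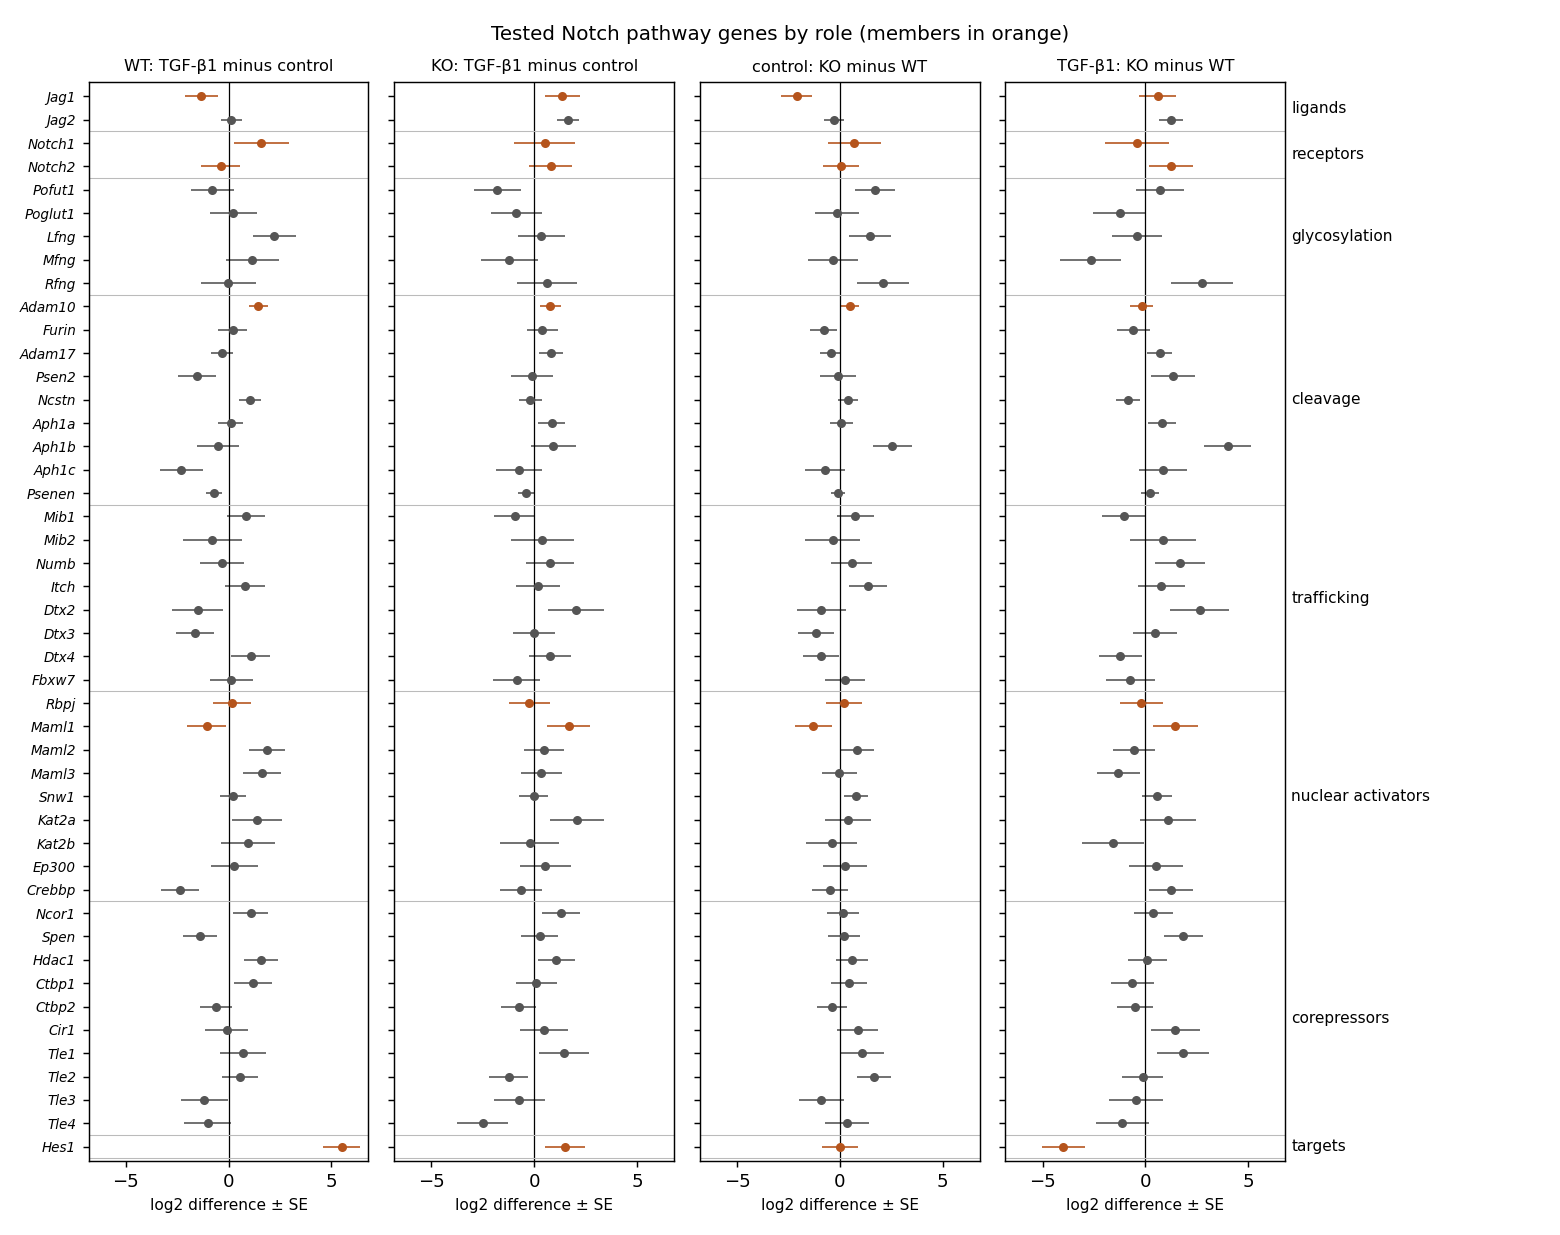
Points are log2 differences of log2(TPM + 1) with their SE for 46 of the 48 tested pathway genes, ordered by role, in 4 comparisons (WT, wild type; KO, labelled knockout), with the 7 tested members in orange. The Hes1 point at 5.50 in wild type is the largest in the 4 panels, and the next in size is Aph1b at 3.999 between genotypes under TGF-β1.

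Genes around HES1 were looked at as well. Hes2 and Hes3 were at 0 in all 17 libraries. Hes6, which opposes HES1 in other tissues, was 0.04 to 76.67 TPM in wild-type controls and 0 to 55.11 with TGF-β1, and overlapped in every comparison. ID proteins, which bind the partners of such helix-loop-helix factors, were abundant, with Id2 at 281.17 to 1555.58 and Id3 at 189.92 to 567.48 TPM in wild-type controls. Id1, a known TGF-β family target, was 0.52 to 449.9 TPM in wild-type controls and 266.28 to 1067.63 with TGF-β1 (difference 3.46 ± 1.44, unadjusted p = 0.026, adjusted p = 0.44).

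Of the 8 tested genes of that list, 8 lay on the positive side in wild type with TGF-β1, beside 53.9% of all tested genes, and 5 in knockout, beside 53.1%. None passed. The others overlapped between treatments in each genotype, with wild-type control ranges of 13.15 to 71.82 TPM for Bhlhe41, 0 to 75.89 for Bhlhe40, 0.16 to 46.34 for Tcf4 and 0.09 to 21.44 for Tcf3. Tcf12, an E protein partner, was 0.03, 1.64, 0.06, 0.01 and 0.14 TPM in wild-type controls and 5.76, 13.92, 51.99, 10.56 and 17.88 in knockout controls. Every knockout control lay above every wild-type control, as was so for 83 of all 12158 tested genes. The Tcf12 difference of 3.68 ± 0.91 did not pass after adjustment (limma unadjusted p = 0.00061, adjusted p = 0.21).

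Of 3 inflammatory genes that HES1 is known to repress in macrophages, Il6 and Il12b were at 0 in all 17 libraries and none was tested. Cxcl1, a neutrophil chemokine, was 57.01 TPM in 1 wild-type control and 20.4 TPM in 1 wild-type TGF-β1 library, and at most 0.06 elsewhere. The treated library with Cxcl1 also had 20.91 TPM of Hes1.

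Over the 17 libraries, the genes whose log2(TPM + 1) was most like that of Hes1 were Trp53inp1 (Pearson r = 0.84), 6720489N17Rik (0.84), Arhgef11 (0.83), Gm25603 (0.83) and Iscu (0.82), of 11437 named genes compared. Trp53inp1, a p53-induced gene, was 0 to 0.54 TPM in wild-type controls and 3.23 to 28.52 with TGF-β1, but at most 1.52 in treated knockout libraries. Arhgef11 was 6.26 to 24.13 TPM in treated wild-type libraries and reached 19.53 in 1 treated knockout library. Iscu, an iron-sulphur scaffold, was 88.36 to 225.52 TPM in wild-type controls and 270.82 to 413.46 with TGF-β1.

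Of the pathway, Adam10 was nearest to Hes1, with r = 0.64 and rank 116. Notch1 had 0.43 and Rbpj 0.16. Crebbp had r = -0.84 and rank 11432 of 11437. These correlations rest on 5 libraries with Hes1 and 12 near 0, share the treatment groups, and are a description with no test.

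Sums over other gene lists were set beside these results. The summed TPM of 20 cell cycle genes was 998 to 4734 in wild-type controls and 4857 to 7664 with TGF-β1, and 1217 to 5590 and 4865 to 6176 in libraries labelled knockout. For 12 immediate-early genes the sums were 539 to 2495, 893 to 2785, 775 to 1859 and 1128 to 3435 in the same order. The T lymphocyte sums were at most 2.09 outside the treated knockout libraries. The sums of 7 endothelial markers, a cell type rich in Notch transcripts, were 20.3 to 59.1, 12.5 to 48.1, 25.7 to 51.8 and 1.51 to 35.5, with Cdh5, Emcn, Cldn5 and Tek at 0 in all 17. Of 8 fibroblast and smooth muscle markers, Col1a1, Col3a1, Pdgfra, Dcn and Myh11 were at 0 in all 17 libraries, and the sum was at most 22.5 in any library. Their part in the results was not tested.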

How the data were processed

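Expression was measured by RNA sequencing of SMART-seq2 cDNA in 17 libraries. The authors deposited 1 table of TPM values; per the submitters' processing notes reads passed FastQC and Trim Galore and were quantified with RSEM on mm9, with versions not given in the sources used here. RSEM shares reads among near-identical genes, and the kit is not stated to mark strand. Symbols were matched to 32897 of 37620 gene IDs from GENCODE vM21, and 4723 had none.

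Groups came from the labels. A gene entered the tests if 3 or more libraries reached 1 TPM, and values were analysed as log2(TPM + 1), a scale that understates changes of low genes, with limma 3.58.1 in R 4.3.3 (lmFit, eBayes with trend), fitted once over the 4 groups. A gene passed at a Benjamini-Hochberg adjusted p under 0.05 over all 12158 tested genes. The limma fit was tried on simulated, normally scattered values with known shifts, for the knockout TGF-β1 contrast only. Those values lack the many zeros of the data, so the trial gives no error rate for them. Single values used exact permutation over libraries.

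The members, lists and tests were chosen with earlier results of these data known. Text names the members, up to 3 further tested genes per role by mean level, the 2 largest pathway differences per comparison, tested genes of the HES, ID and HES1-repressed lists, the 5 genes most correlated with Hes1, and Smad3. Genes named for separated groups or for an unadjusted p were singled out after their values were seen. Depth is unknown. Some pathway genes counted in the lists are not reported here by name. The alternatives were other pseudocounts, filters and scaling, the compared groups alone, a detected-gene covariate, a replicate block and leaving libraries out.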

Additional observations from a re-analysis of the deposited data

Results flagged for a closer look

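In 4 of 18 groups of 4 or 5 member values, the gap between 1 library and the nearest of its group took up an unusual share of the group's range. Chance gives this in about 1 of 20 groups of normally scattered values. That rate does not hold for the Jag1 and Maml1 groups, where the other libraries were at 0 to 0.02 TPM and any detected library stands apart. Notch1 was 46.16 TPM in knockout control replicate 5, while the other knockout controls were at most 1.34. Jag1 was 9.24 TPM and Maml1 3.18 TPM in wild-type TGF-β1 replicate 2, where no other treated wild-type library exceeded 0.02 for either gene. Maml1 was 1.86 TPM in knockout control replicate 5, against at most 0.01 in the others. These values come from 2 libraries, each of which holds a pair of them.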

How the results depend on the processing

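The pathway count in wild type with TGF-β1, 1 gene, was 0 with no filter on low values, 0 with the compared groups alone and 0 without the 6 libraries in which over 10% of moderately expressed genes were at 0, and it was 1 in each fit without 1 library. The count between genotypes under TGF-β1 was 0 to 1 in those fits. The 1 was Hes1 without knockout TGF-β1 replicate 3, the knockout library that held it, and nothing is read from it because the wild-type values chose the gene. The other 3 pathway counts were 0 under each alternative run. The Hes1 difference in knockout was 0.0074 to 2.24 without 1 library and 0.56 to 2.61 under the other alternatives. Of 611 alternative values for 32 tested single-gene differences, 0 passed (lowest limma adjusted p 0.27), and 10 differences changed sign in at least 1.

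Without 1 library, Notch1 ranged from -1.29 to 1.55 for TGF-β1 in knockout, -0.34 to 1.11 between genotypes in controls and -2.18 to 0.67 with TGF-β1. Notch2 ranged from -0.30 to 0.38 between genotypes in controls, and Adam10 from -0.41 to 0.16 with TGF-β1. Rbpj ranged from -0.86 to 0.22 for TGF-β1 in knockout, -0.37 to 0.79 and -0.83 to 0.17 between genotypes in controls and with TGF-β1, and -1.05 to 0.17 for the difference of effects. With a covariate for detected genes, Notch2 was -0.54 and Rbpj -0.51 between genotypes in controls. Without those 6 libraries, Rbpj was 0.15 with TGF-β1 and Rfng -0.33 in controls. The cause was not tested.

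All-gene counts moved by over 1.5 times too. They were 5 to 34 in wild type (22 as reported), 0 to 10 in knockout (1), 8 to 23 between genotypes in controls (18), 3 to 20 with TGF-β1 (19) and 0 to 1 for the difference of effects (0). Libraries with the same replicate number showed no shared deviation from their group means (median correlation of deviations -0.010 over 22 pairs, with 0 over 0.1). Correlations between libraries were only 0.61 to 0.81, so this check cannot tell whether such libraries share an animal or batch. A replicate block gave 11 genes in wild type and 10 between genotypes with TGF-β1, and Hes1 in knockout was 1.38. TPM gives no depth, so no detection limit could be set for the members at 0.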
